A study of Mus musculus with 37 samples.

Results

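Astrocytes of the injured hemisphere from mice that had developed post-traumatic epilepsy were compared with astrocytes of the matching hemisphere from mice that had undergone sham surgery. The libraries were those labelled ipsilateral PTE+ (4 mice) and ipsilateral sham (5 mice), which are 9 of the 37 hippocampal libraries of the study, and the comparison was made across all genes. PTE+ mice had received a severe controlled cortical impact (CCI) over the right parietal cortex and had shown repeated epileptic episodes in continuous EEG and video recording before collection at 4 months. Sham mice had undergone the craniectomy and the electrode implantation without the impact, so that the surgery, the anesthesia and the electrode were common to both groups. All were male wild-type mice, of a strain that the labels name CD31 and the methods CD1, and 1 library was made per mouse. The 8 ipsilateral libraries of injured mice without epilepsy (PTE-) entered the fit to share the estimate of the spread, and their levels are given where they place those of the PTE+ mice. Because sham mice lack both the injury and the seizures, the effects of the injury and of the epilepsy cannot be told apart in this comparison.

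Astrocytes take up glutamate and potassium released by neurons, convert glutamate to glutamine, supply lactate and lipoprotein particles, and sense circulating glucocorticoids. After injury they can become reactive, a state marked by intermediate filaments such as GFAP and vimentin and by secreted proteins of the acute phase and the complement system. In epilepsy, loss of glutamine synthetase and of potassium buffering is among the best known changes of these cells.

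The cells had been pulled out with magnetic beads that bind ACSA-2, which sits on the astrocyte surface. All 10 astrocyte markers examined had more than 3 counts in each of the 9 libraries. Their summed level ranged from 13382 to 17847 TPM in the PTE+ libraries and from 14109 to 22096 TPM in the sham libraries. Markers of other cells were present too. Those of blood summed from 1489.8 to 2409 TPM in the PTE+ libraries and from 943 to 7629 TPM in the sham libraries, those of endothelium from 34.6 to 2097 TPM in the PTE+ libraries and from 358 to 1028 TPM in the sham libraries and those of ependyma and choroid plexus from 117 to 1545 TPM in the PTE+ libraries and from 101 to 1753 TPM in the sham libraries. Those of microglia summed from 73.3 to 739 TPM in the PTE+ libraries and from 131 to 1081 TPM in the sham libraries, those of oligodendrocytes from 493 to 979 TPM in the PTE+ libraries and from 387 to 2159.9 TPM in the sham libraries, and those of neurons from 195 to 875 TPM in the PTE+ libraries and from 103 to 550.1 TPM in the sham libraries. In bulk RNA, fewer cells of a type and less RNA per cell cannot be told apart. The 9 libraries held 44225766 to 59846479 counts and 10886 to 15545 genes with a count. Of 7534 genes with a median above 1000 counts over the 9 libraries, 968 had at most 3 counts in the library of sham mouse a9_9 and 310 in that of PTE+ mouse a9_19, against 3 to 71 in the others, so that even abundant genes were missed in some libraries. Levels below are CPM, counts scaled to library size with TMM factors, listed for PTE+ mice a8_10, a9_17, a9_18 and a9_19 and for sham mice a8_15, a8_16, a9_9, a9_10 and a9_11, always in that order. Fold changes are on the log2 scale, with positive values for a higher level in PTE+.

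No gene passed an adjusted p of 0.05 in edgeR's quasi-likelihood test (0 of 14903 genes tested, 0%), and the smallest adjusted p was 1. At an unadjusted p under 0.05 there were 248 genes, of which 61 were higher (0.409% of the genes tested) and 187 lower (1.25%) in PTE+. These shares are the background for the genes counted at that p in each list below. The criteria of the study's methods ask for an unadjusted p under 0.05, at least a 1.2-fold change and a mean TPM above 5 in 1 of the groups. They were met by 14 genes that were higher (0.0939%) and 59 that were lower (0.396%). Other tools gave 61 genes (DESeq2 with 3 groups), 7 genes (DESeq2 with the PTE+ and sham libraries alone), 0 genes (limma voom, 451 at an unadjusted p under 0.05) and 0 genes (limma on log2(TPM + 1), 342 at an unadjusted p) with an adjusted p under 0.05. Of the 61 genes, 59 had at most 3 counts in every library of a group, and 0 had more than 3 counts in all 9 libraries. Of the 7 genes these numbers were 3 and 2. The excess of lower genes depended on the fit. By the same criteria edgeR gave 157 genes with the 9 libraries alone, 63 of them higher, and 393 with the number of genes detected per library in the model, 320 of them higher. Limma on log2(TPM + 1) gave 250, of which 183 were higher. Of the 73 genes, 41 were also under an unadjusted p of 0.05 in the same direction with the 9 libraries alone.

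**Figure D1:**
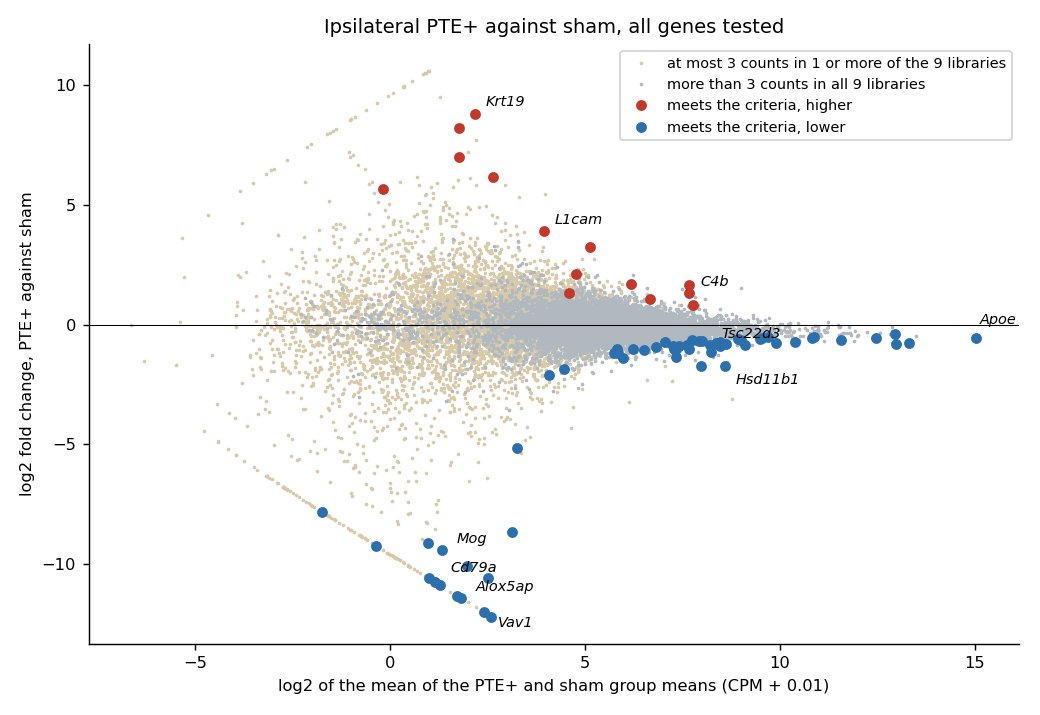
Log2 fold change of PTE+ against sham (vertical) against the log2 mean level in CPM (horizontal) for the 14903 genes tested, each point a gene, with the 14 higher and 59 lower genes that met the criteria in color. The genes with many counts that met the criteria lie mostly just below 0, and those far from 0 at the left were missed in some of the libraries.

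More than 3 counts in all 9 libraries were found for 52 of the 73 genes, 8 higher and 44 lower. The 44 were lower by 1.32-fold to 4.35-fold with a median of 1.77-fold, and 30 of them by less than 1 on the log2 scale. The groups did not overlap for 9 of the 44 lower genes, where over all genes tested 69 (0.463%) were lower without overlap, and for 3 of the 8 higher genes, where over all genes tested 95 (0.637%) were higher without overlap. A mean PTE- level between those of PTE+ and sham was found for 38 of the 44 and 6 of the 8 genes, which is a description, since the PTE+ and sham means had been chosen to lie apart. The mouse names carry a prefix, a8 or a9, whose meaning the labels do not give, with 1 PTE+ and 2 sham mice under a8 and 3 of each under a9. All 44 genes were lower within each prefix, as genes chosen for a lower level in these same 9 libraries mostly must be, with a median difference on log2(CPM + 1) of -0.61 among a9 mice and -0.92 among a8 mice. The highest of the 9 libraries was an a8 sham library for 19 of the 44 and that of sham mouse a9_9 for 24.

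Of the genes that met the criteria, Tsc22d3 had the smallest p and Hsd11b1 the second smallest. Both were lower in PTE+, and both belong to the glucocorticoid pathway. Glucocorticoids enter astrocytes, bind the receptor Nr3c1 and activate genes, and Hsd11b1 encodes the enzyme that regenerates the active hormone from its inactive keto form inside the cell. Tsc22d3 (chrX:140539528-140600659, minus strand, GRCm38) encodes the glucocorticoid-induced leucine zipper protein, a target of the receptor. Its level was 165, 257, 178 and 143 CPM in the PTE+ libraries and 477, 435, 352, 264 and 543 CPM in the sham libraries. Every PTE+ library was below every sham library. The fold change was -1.16 ± 0.33 (SE), that is 2.23-fold lower, with an unadjusted p of 0.00225 and an adjusted p of 1 in edgeR, and the exact permutation test gave p = 0.0159, the lower limit of that test with groups of 4 and 5. The difference was -0.98 among a9 mice and -1.46 among a8 mice. PTE- libraries had a lowest, median and highest level of 158, 213 and 393 CPM.

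Hsd11b1 (chr1:193221634-193264075, minus strand) was at 289, 166, 111 and 161 CPM in the PTE+ libraries and 568, 604, 993, 307 and 499 CPM in the sham libraries. The groups again did not overlap, with sham mouse a9_9 the highest and sham mouse a9_10 only just above PTE+ mouse a8_10. The fold change was -1.71 ± 0.50 (SE) or 3.27-fold lower, with an unadjusted p of 0.00285 in edgeR and an exact permutation p = 0.0159. Leaving out any 1 of the 9 libraries kept the unadjusted p of Tsc22d3 at or under 0.00983 and that of Hsd11b1 at or under 0.0123. Lowest, median and highest PTE- levels of Hsd11b1 were 85.5, 202 and 442 CPM. Of the 12 genes listed for the glucocorticoid response, 10 were lower and 2 higher, with a median of -0.61 beside 0.00 for all genes tested. With scaling to the total count alone 9 were lower, and the median was -0.44 beside 0.15 for all genes tested. More than 3 counts in all 9 libraries were found for 8 of the 12, with a median of -0.47 beside -0.06 for all such genes. Tsc22d3 and Hsd11b1 alone of the 12 passed an unadjusted p of 0.05 in edgeR, beside 1.25% of all genes tested that were lower at that p. Klf9, a transcription factor induced by the receptor, had a fold change of -0.72 ± 0.36 (SE) (unadjusted p = 0.0615 in edgeR, exact permutation p = 0.0317). The receptor gene Nr3c1 had -0.35 ± 0.73 (SE) and p = 0.639 in edgeR. Fkbp5, a chaperone of the receptor and a standard target, was detected poorly, at 15.2, 6.46, 14.6 and 0 CPM in the PTE+ libraries and 1.52, 8.49, 0, 4.13 and 3.19 CPM in the sham libraries. Its values overlapped between the groups, and its fold change was 1.38 ± 1.71 (SE).

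Promoters of Tsc22d3, Hsd11b1 and Dusp1 are shown because the first 2 had the smallest p among the genes that met the criteria. The third is another gene that glucocorticoids induce, picked out after its values were seen. The sequences are RefSeq promoters on GRCm38.p6, 250 bases before to 50 after a start site, 5′ to 3′ on the strand of the gene. Capitals mark the cAMP response element TGACGTCA, and none of the 3 windows holds the glucocorticoid response element (both motifs were searched on both strands).
Tsc22d3, chrX:140542619-140542918, minus strand: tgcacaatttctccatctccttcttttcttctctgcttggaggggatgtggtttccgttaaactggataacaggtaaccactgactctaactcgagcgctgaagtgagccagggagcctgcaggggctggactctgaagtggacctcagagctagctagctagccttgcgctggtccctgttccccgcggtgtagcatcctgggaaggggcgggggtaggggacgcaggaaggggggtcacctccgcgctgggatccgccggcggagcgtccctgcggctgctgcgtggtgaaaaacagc
Hsd11b1, chr1:193242311-193242610, minus strand: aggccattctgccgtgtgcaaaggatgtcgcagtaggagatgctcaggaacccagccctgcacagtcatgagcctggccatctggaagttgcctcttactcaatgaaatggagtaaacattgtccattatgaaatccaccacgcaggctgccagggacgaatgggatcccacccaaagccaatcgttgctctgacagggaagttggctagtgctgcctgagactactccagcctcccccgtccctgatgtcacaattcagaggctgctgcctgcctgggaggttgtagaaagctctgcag
Dusp1, chr17:26508423-26508722, minus strand: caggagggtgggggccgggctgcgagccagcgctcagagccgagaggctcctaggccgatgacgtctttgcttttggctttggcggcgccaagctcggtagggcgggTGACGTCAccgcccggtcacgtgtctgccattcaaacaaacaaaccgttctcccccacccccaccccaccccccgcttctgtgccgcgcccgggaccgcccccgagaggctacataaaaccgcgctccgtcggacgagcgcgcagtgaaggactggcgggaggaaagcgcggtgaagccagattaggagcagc
Over 32841 RefSeq promoters of this length, 0.475% held the glucocorticoid element and 1.79% the cAMP element. The other 2 annotated promoters of Tsc22d3 also lacked both, and elements outside these windows were not searched. Dusp1, a phosphatase that ends MAP kinase signalling and that both stress and glucocorticoids induce, was at 128, 162, 82.6 and 93.8 CPM in the PTE+ libraries and 665, 609, 68.3, 75 and 518 CPM in the sham libraries. Both a8 sham mice and sham mouse a9_11 were well above all PTE+ mice, while sham mice a9_9 and a9_10 lay below all PTE+ mice. The fold change was -1.73 ± 0.60 (SE) with an unadjusted p of 0.00981 in edgeR, and the exact permutation test gave p = 0.238. The difference was -2.31 among a8 mice and -0.36 among a9 mice.

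Several abundant genes of the astrocyte itself were lower in PTE+. Glul encodes glutamine synthetase, which converts the glutamate taken up at synapses to glutamine. It was at 1062, 954, 1191 and 874 CPM in the PTE+ libraries and 2286, 2022, 1726, 1096 and 1300.4 CPM in the sham libraries. The PTE+ libraries were close to each other, and sham mouse a9_10 lay among them. Glul had a fold change of -0.72 ± 0.27 (SE) (unadjusted p = 0.0158 in edgeR, exact permutation p = 0.0317). The unadjusted p exceeded 0.05 when sham mouse a8_15 or sham mouse a8_16 was left out, reaching 0.0645 at most. Of 17 genes for glutamate and GABA handling Glul was the only one with an unadjusted p under 0.05, beside 1.25% of all genes tested that were lower at that p. Slc1a3 and Slc1a2, the glutamate transporters, had fold changes of -0.33 ± 0.40 (SE) and -0.14 ± 0.38 (SE) with p = 0.421 and p = 0.725, and the median of the list was -0.19.

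Cst3, the secreted protease inhibitor cystatin C, was at 8103, 5005, 5112 and 5469 CPM in the PTE+ libraries and 13059.9, 14639, 11300.5, 6037 and 6985 CPM in the sham libraries. PTE+ mice a9_17, a9_18 and a9_19 were the lowest of the 9, and PTE+ mouse a8_10 lay above sham mice a9_10 and a9_11. This was a fold change of -0.81 ± 0.31 (SE) (unadjusted p = 0.0168 in edgeR, exact permutation p = 0.0635), and the p exceeded 0.05 when sham mouse a8_16 was left out, reaching 0.0581. Lowest, median and highest levels in PTE- were 6142, 8189 and 15458 CPM. Among 11 tested cystatins and cathepsins 9 were lower, with a median of -0.35.

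Apoe, the lipoprotein component that carries cholesterol from astrocytes to neurons, was the most abundant of these genes. It was at 32207, 26545, 27664 and 23116 CPM in the PTE+ libraries and 59719.7, 46552, 37714, 27771 and 30487 CPM in the sham libraries, with both a8 sham mice highest and sham mice a9_10 and a9_11 near the PTE+ levels. Its fold change was -0.56 ± 0.19 (SE) (unadjusted p = 0.00885 in edgeR, exact permutation p = 0.0794). Of the 16 cholesterol and lipoprotein genes Apoe alone had an unadjusted p under 0.05 in edgeR, beside 1.25% of all genes tested that were lower. In that list 11 of 16 were lower, with a median of -0.23. Gpr37l1, an astrocyte receptor coupled to G proteins, was at 4561 ± 898 CPM (SD, n = 4) against 6764 ± 1709.9 CPM (SD, n = 5), a fold change of -0.57 ± 0.20 (SE). Smpd1, the lysosomal enzyme acid sphingomyelinase, was at 241 ± 35.2 CPM (SD, n = 4) against 413 ± 119.6 CPM (SD, n = 5), a fold change of -0.78 ± 0.27 (SE). Their unadjusted p in edgeR was 0.00974 and 0.0088, and neither exceeded 0.05 when any 1 of the 9 libraries was left out. The exact permutation test gave p = 0.0635 for Gpr37l1 and p = 0.0476 for Smpd1.

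Aldh1l1, an enzyme of folate metabolism used as an astrocyte marker, was at 381, 555, 635 and 732 CPM in the PTE+ libraries and 1331, 901, 847, 584 and 717 CPM in the sham libraries. Sham mice a9_10 and a9_11 lay among the PTE+ libraries. The fold change was -0.61 ± 0.26 (SE) with an unadjusted p of 0.03 in edgeR and an exact permutation p = 0.0794, and the difference was -0.15 among a9 mice and -1.52 among a8 mice. The p exceeded 0.05 when PTE+ mouse a8_10, PTE+ mouse a9_17, sham mouse a8_15 or sham mouse a8_16 was left out, reaching 0.163 at most. The marker list as a whole had 9 of 10 genes lower and a median of -0.31. With scaling to the total count alone 7 were lower, and the median was -0.15 beside 0.15 for all genes tested.

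**Figure D2:**
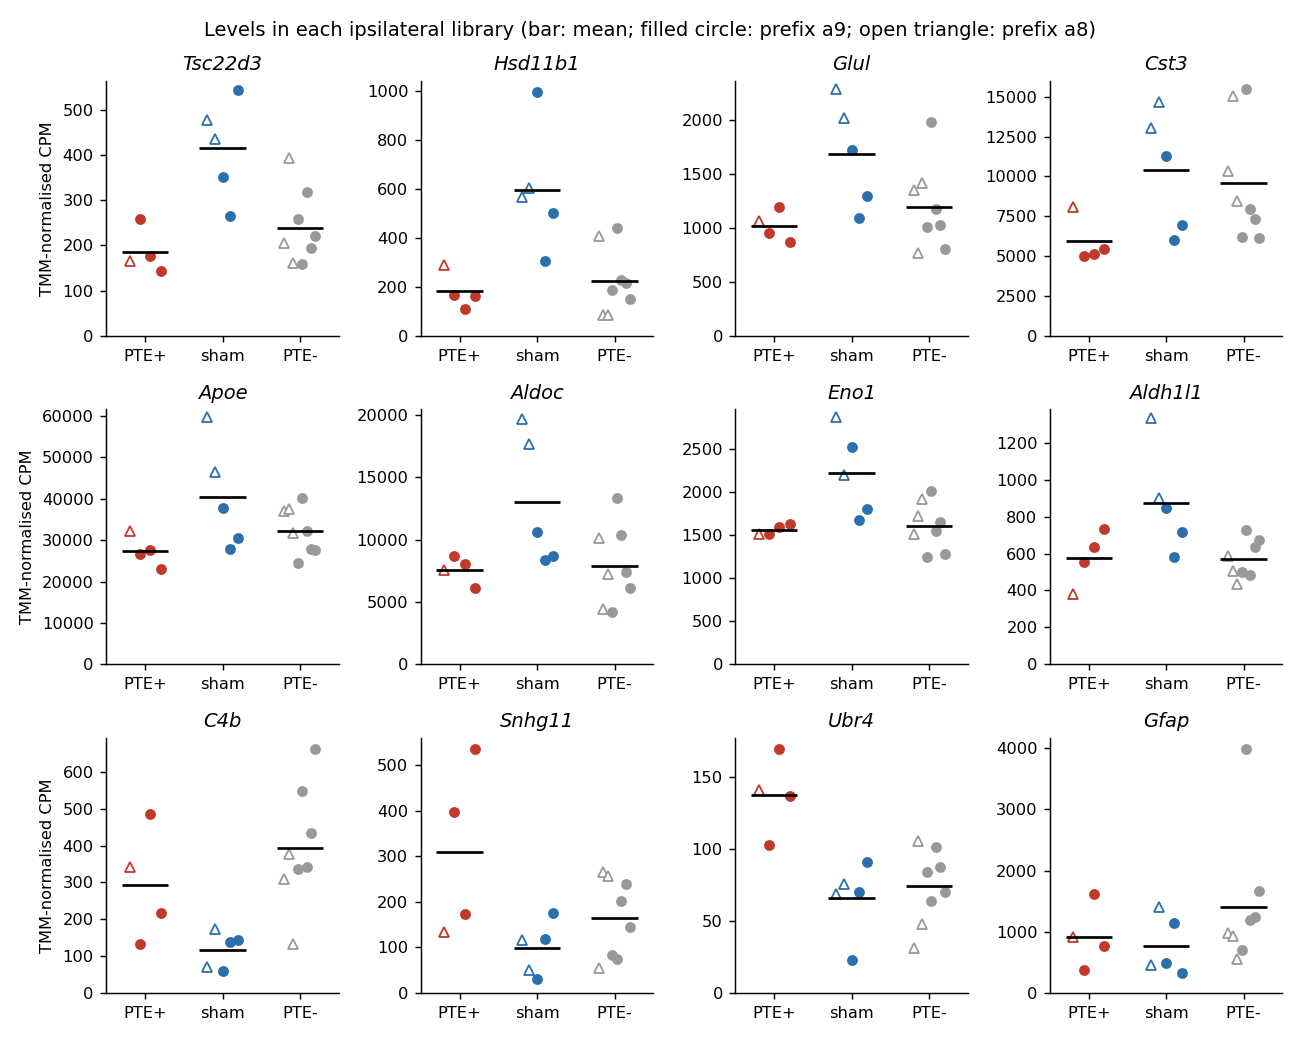
Level of 12 genes in TMM-normalised CPM (vertical, from 0) in each PTE+ (4), sham (5) and PTE- (8) ipsilateral library, with the mean of each group as a bar, circles for the prefix a9 and triangles for a8. Tsc22d3, Hsd11b1, Eno1 and Ubr4 show no overlap of PTE+ with sham, while for Apoe, Aldoc and Aldh1l1 the a8 sham mice lie highest.

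Of 20 genes of glycolysis and lactate, 2 had an unadjusted p under 0.05 in edgeR, Eno1 and Aldoc, and both were lower in PTE+. Over all genes tested 1.25% were lower at that p. The fold change was below 0 for 18 of the 20, with a median of -0.34. Among all 8146 genes with more than 3 counts in all 9 libraries, 4494 (55.2%) were lower and the median was -0.06. With scaling to the total count alone 16 of the 20 were lower, and the median was -0.17 beside 0.15 for all genes tested. Eno1, the enzyme enolase, was at 1522, 1513, 1599 and 1627 CPM in the PTE+ libraries and 2882, 2204, 2534, 1681 and 1809 CPM in the sham libraries. No PTE+ library reached the lowest sham library, and the p exceeded 0.05 when sham mouse a8_15 was left out, reaching 0.0556. Its fold change was -0.51 ± 0.18 (SE) (unadjusted p = 0.0134 in edgeR, exact permutation p = 0.0159, the smallest that this design allows). Eno1b, a near-identical copy, had -0.54 ± 0.18 (SE), but the estimated counts of the copies rest on how RSEM divides their shared reads, so the pair is best read as 1 measurement. Aldoc, the aldolase of astrocytes, was at 7529, 8716, 8058 and 6097 CPM in the PTE+ libraries and 19639, 17641, 10568, 8339 and 8701 CPM in the sham libraries. The a8 sham mice were far above the other libraries, and sham mice a9_10 and a9_11 lay within the PTE+ range. Aldoc had a fold change of -0.77 ± 0.32 (SE) with an unadjusted p of 0.0271, which exceeded 0.05 when PTE+ mouse a9_19, sham mouse a8_15 or sham mouse a8_16 was left out, reaching 0.117 at most. Differences were -1.31 among a8 mice and -0.28 among a9 mice.

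Subunits of the mitochondrial respiratory chain were added to the lists after their values had been seen, and so are described only. Of 77 tested subunits 68 were lower, with a median of -0.31 and a range of -0.91 to 0.32. With scaling to the total count 58 were lower, with a median of -0.14 beside 0.15 for all genes tested. Of the 77 subunits, 4 were lower at an unadjusted p under 0.05 in edgeR with TMM factors, beside 1.25% of all genes tested. Among them were Ndufv1 and Ndufa9 of complex I, which accepts electrons from NADH, and Cox4i1 of complex IV, which passes them to oxygen. Ndufv1 was at 291, 274, 146 and 275 CPM in the PTE+ libraries and 440.1, 403, 900.1, 286 and 281 CPM in the sham libraries. Only PTE+ mouse a8_10 exceeded the lowest sham libraries. Its fold change was -0.91 ± 0.33 (SE) (unadjusted p = 0.0141 in edgeR), and the p exceeded 0.05 when PTE+ mouse a9_18 or sham mouse a9_9 was left out, reaching 0.0788 at most. Ndufa9 had -0.74 ± 0.34 (SE) (unadjusted p = 0.0446 in edgeR) and did not overlap between the groups, but the p exceeded 0.05 when PTE+ mouse a8_10, PTE+ mouse a9_17, PTE+ mouse a9_19, sham mouse a8_15, sham mouse a8_16 or sham mouse a9_9 was left out, reaching 0.151 at most. Cox4i1 had -0.85 ± 0.40 (SE) (unadjusted p = 0.049 in edgeR, exact permutation p = 0.0952), and the p exceeded 0.05 when PTE+ mouse a8_10, PTE+ mouse a9_17, PTE+ mouse a9_18, PTE+ mouse a9_19, sham mouse a8_15, sham mouse a8_16 or sham mouse a9_9 was left out, reaching 0.113 at most. Cytoplasmic ribosomal protein genes, another list added in this way, had 62 of 77 lower and a median of -0.22, with 0 at an unadjusted p under 0.05 in edgeR. Their median was -0.06 with scaling to the total count, beside 0.15 for all genes tested.

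**Figure D3:**
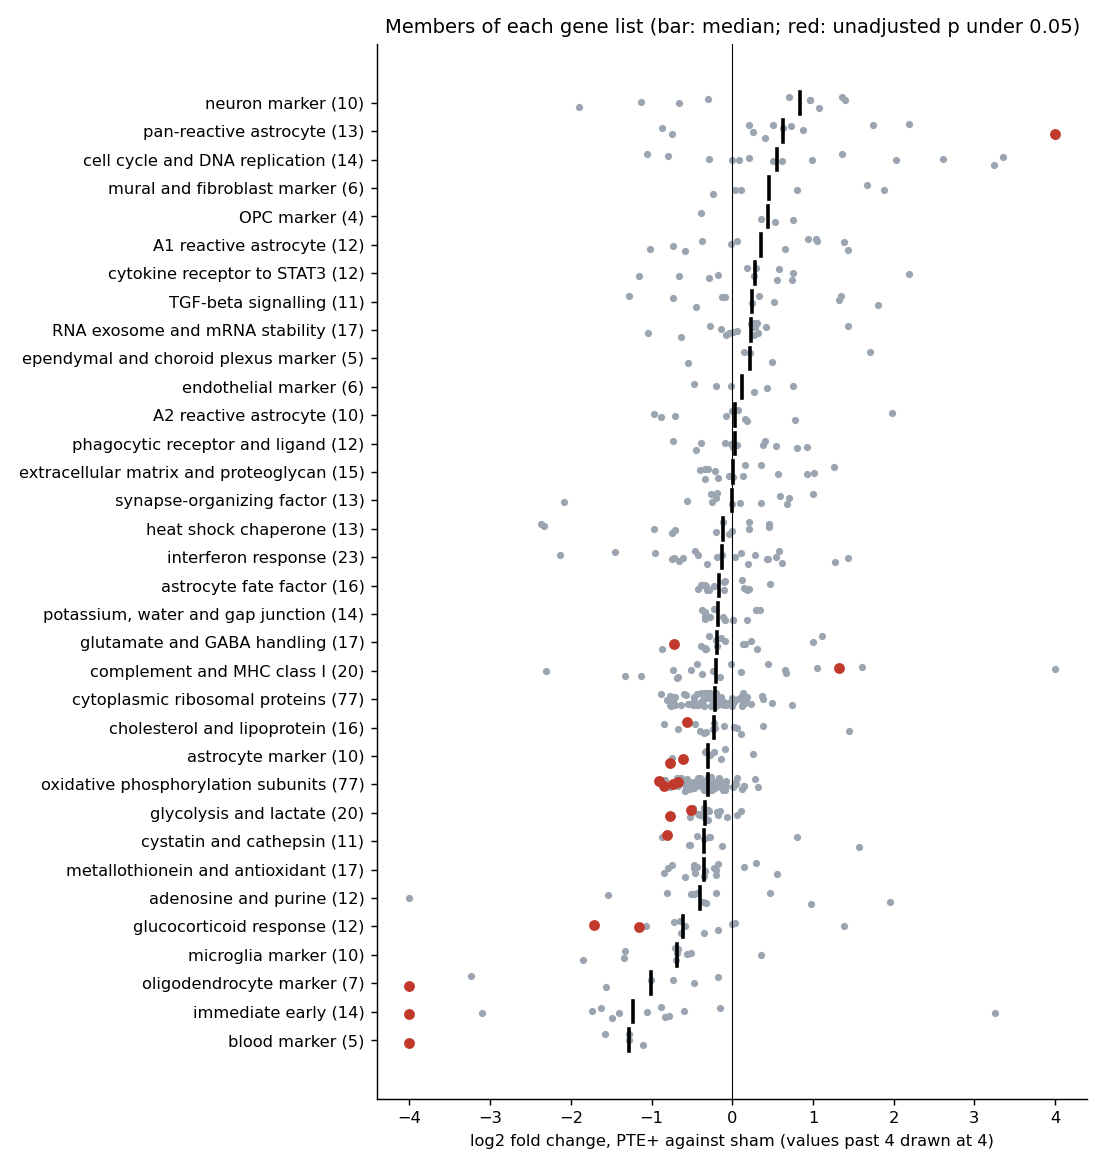
Log2 fold change of PTE+ against sham (horizontal) for the tested members of each gene list with at least 4 tested genes (rows, with the number tested), each point a gene and each bar the median, with genes at an unadjusted p under 0.05 in red and values past 4 drawn at 4. Of the lists drawn, blood, immediate early and oligodendrocyte genes have the lowest medians (-1.28, -1.23 and -1.01), and neuron markers the highest (0.83).

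Immediate early genes, which neuronal and glial activity or stress switches on within minutes, were lower in PTE+ for 13 of 14 members, with a median of -1.23. Of all genes tested 49.9% were lower. Only 4 of the 14 had more than 3 counts in all 9 libraries, and these 4 were lower with a median of -0.71. Scaling to the total count left 12 of the 14 lower, with a median of -1.04 beside 0.15 for all genes tested. The sham mice were split. Fos was at 3.273 to 133 CPM in the PTE+ libraries, lowest in mouse a9_18, and at 1511, 1107, 0, 25.8 and 1267 CPM in the sham libraries, with sham mice a8_15, a8_16 and a9_11 above 1000 CPM and sham mice a9_9 and a9_10 below most PTE+ libraries. Its fold change was -3.11 ± 1.62 (SE) with an unadjusted p of 0.0709 in edgeR, and among a9 mice the difference was 0.26, in the opposite direction. Junb, a partner of Fos in the AP-1 factor, followed the same division of the sham mice, at 180.4, 192, 35.7 and 71 CPM in the PTE+ libraries and 589, 464, 71.9, 51.1 and 503 CPM in the sham libraries. Its fold change was -1.49 ± 0.77 (SE) and its unadjusted p 0.0689. Egr2, a zinc finger factor, was the only member with an unadjusted p under 0.05 (p = 0.0236 in edgeR), while the exact permutation test gave p = 0.238. Egr2 was at 0 in all PTE+ libraries and at 2.31, 7.79, 0, 0 and 3.73 CPM in the sham libraries. Its sham mean was 48.9-fold above the counting limit of 3 counts in the PTE+ libraries, though sham mice a9_9 and a9_10 were also at 0. Gem, a small GTPase that activity also induces and that was picked out after its values were seen, did not overlap between the groups, at 4.63, 18, 12.3 and 3.13 CPM in the PTE+ libraries and 20.3, 34, 62.8, 34.4 and 21.3 CPM in the sham libraries. Its fold change was -1.86 ± 0.77 (SE) with an unadjusted p of 0.0253, which exceeded 0.05 when PTE+ mouse a8_10, PTE+ mouse a9_19 or sham mouse a9_9 was left out, reaching 0.0704 at most.

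Among the higher genes, C4b had the clearest place in the biology of astrocytes. It encodes complement component 4, which opens the classical cascade together with C1q and is made by reactive astrocytes. C4b (chr17:34728380-34743882, minus strand) was at 341, 132, 486 and 217 CPM in the PTE+ libraries and 69.1, 175, 59, 139 and 145 CPM in the sham libraries. PTE+ mice a8_10, a9_18 and a9_19 exceeded all sham mice, and PTE+ mouse a9_17 was inside their range. The fold change was 1.33 ± 0.45 (SE), 2.51-fold higher, with an unadjusted p of 0.00815 in edgeR and an exact permutation p = 0.0635. The p exceeded 0.05 when PTE+ mouse a9_18 was left out, reaching 0.0514. Lowest, median and highest PTE- levels were 132, 360.0 and 662 CPM. C4b was the only one of 20 complement and MHC class I genes with an unadjusted p under 0.05 in edgeR. Over all genes tested 0.409% were higher at that p. The list had 12 genes lower and a median of -0.20. C3, a later component, had 1.06 ± 1.33 (SE), and the C1q chains C1qa, C1qb and C1qc had -1.33, -0.68 and -0.68, with 0 CPM in PTE+ mice a9_17 and a9_19.

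Ubr4, a ubiquitin ligase that marks proteins for degradation, was at 141, 103, 170.0 and 137 CPM in the PTE+ libraries and 68.9, 75.7, 23.1, 70.4 and 90.8 CPM in the sham libraries. All PTE+ libraries were above all sham libraries, and sham mouse a9_9 was far below the rest. Ubr4 had a fold change of 1.07 ± 0.45 (SE) (unadjusted p = 0.0279 in edgeR, exact permutation p = 0.0159, the smallest that this design allows), and the p exceeded 0.05 when PTE+ mouse a8_10, PTE+ mouse a9_18 or sham mouse a9_9 was left out, reaching 0.0746 at most. Snhg11, a long noncoding RNA, was at 133, 396, 172 and 534 CPM in the PTE+ libraries and 115, 50.5, 30.6, 119 and 175 CPM in the sham libraries, a fold change of 1.65 ± 0.58 (SE) with an unadjusted p of 0.0104. PTE+ mice a9_17 and a9_19 were highest. The p exceeded 0.05 when PTE+ mouse a9_19 was left out, reaching 0.0551. Arhgap21, a protein that switches off small GTPases, had 1.69 ± 0.76 (SE), and its unadjusted p of 0.0393 exceeded 0.05 when PTE+ mouse a9_18, PTE+ mouse a9_19, sham mouse a8_15 or sham mouse a9_9 was left out, reaching 0.146 at most. Cyld, a deubiquitinase that restrains NF-kappaB, was at 3.42, 21.8, 22.1 and 129 CPM in the PTE+ libraries and 13.9, 12.7, 1.56, 8.07 and 15.1 CPM in the sham libraries, a fold change of 2.10 ± 0.96 (SE) with an unadjusted p of 0.0408 in edgeR and an exact permutation p = 0.286. PTE+ mouse a9_19 stood far above the rest, and the p exceeded 0.05 when PTE+ mouse a9_19, sham mouse a9_10 or sham mouse a9_9 was left out, reaching 0.521 at most.

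L1cam, a cell adhesion molecule of axons, was at 8.72, 9.99, 23.3 and 73.6 CPM in the PTE+ libraries and 7.59, 0.154, 0.0732, 1.57 and 0.336 CPM in the sham libraries. The groups did not overlap, but PTE+ mouse a8_10 and sham mouse a8_15 differed little, and PTE+ mouse a9_19 was well above the rest. L1cam had a fold change of 3.89 ± 1.66 (SE) (unadjusted p = 0.0309 in edgeR), and the p exceeded 0.05 when PTE+ mouse a9_19, sham mouse a8_16, sham mouse a9_10, sham mouse a9_11 or sham mouse a9_9 was left out, reaching 0.114 at most. Snap25, a synaptic vesicle fusion protein, was at 80.3, 219.7, 28.5 and 500.1 CPM in the PTE+ libraries and 96.7, 79.8, 6.57, 283 and 65.4 CPM in the sham libraries, highest in the same PTE+ mouse. Of 10 neuron markers 6 were higher, with a median of 0.83 and 0 at an unadjusted p under 0.05 in edgeR, and their summed levels overlapped. The part of neuronal RNA in the level of L1cam was not tested.

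Reactive astrocyte genes were not set apart as a group. Gfap was at 922, 381, 1612 and 765 CPM in the PTE+ libraries and 458, 1403, 497, 1143 and 334 CPM in the sham libraries, overlapping fully, with a fold change of 0.26 ± 0.55 (SE) and p = 0.636. Its PTE- levels had a lowest, median and highest value of 549, 1090.3 and 3987 CPM. Vim had 0.62 ± 0.68 (SE) (p = 0.372) and Serpina3n, a protease inhibitor of the acute phase, 0.73 ± 0.99 (SE) (p = 0.475). Of the 13 pan-reactive genes 11 were higher, with a median of 0.62, but the only one with an unadjusted p under 0.05 was Lcn2, the iron-binding protein lipocalin. Lcn2 was at 1.34 and 4.93 CPM in PTE+ mice a9_17 and a9_18 and at 0 in all the other 7 libraries (unadjusted p = 0.0191 in edgeR, exact permutation p = 0.333). Its PTE+ mean was 24.8-fold above the counting limit of the sham libraries, though PTE+ mice a8_10 and a9_19 were also at 0. Timp1, an inhibitor of matrix proteases, was counted above the limit in 1 PTE+ library, at 0.882 CPM, and in no sham library. Cxcl10, a chemokine induced by interferon, was at 13.8, 2.24, 6.89 and 0 CPM in the PTE+ libraries and 1.47, 0, 0, 5.46 and 1.62 CPM in the sham libraries, with p = 0.432. The A1 and A2 reactive lists had medians of 0.35 and 0.04 and 0 genes each at an unadjusted p under 0.05 in edgeR.

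Genes of potassium and water buffering and of gap junctions showed no difference that passed, with 9 of 14 lower and a median of -0.17. The water channel Aqp4 had -0.09 ± 0.30 (SE), the potassium channel Kcnj10 0.18 ± 0.82 (SE) and the connexin Gja1 -0.28 ± 0.29 (SE), with p = 0.771, p = 0.827 and p = 0.354 in edgeR. With an SE of this size, the data leave the direction of Kcnj10 undetermined. The sign of Aqp4 turned with scaling to the total count, and those of Gja1 and Slc1a2 turned in limma on log2(TPM + 1) and with total count scaling, respectively.

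The other lists had no gene at an unadjusted p under 0.05 in edgeR. Medians were -0.35 for 17 metallothionein and antioxidant genes, of which 14 were lower, -0.40 for 12 adenosine and purine genes, -0.13 for 23 interferon response genes and -0.12 for 13 chaperones. They were 0.29 for 12 genes from cytokine receptors to STAT3, 0.24 for 11 TGF-beta genes, 0.24 for 17 genes of the RNA exosome and mRNA stability and 0.56 for 14 cell cycle genes, of which 10 were higher. Medians were -0.17 for fate factors, 0.01 for matrix and proteoglycans, 0.00 for synapse-organizing factors and 0.03 for phagocytic receptors, beside 0.00 for all genes tested. The most abundant members of these lists were Mt1 at -0.46 ± 0.51 (SE), Entpd2 at -0.36 ± 0.36 (SE), Ifitm3 at 0.29 ± 0.66 (SE), Stat3 at -0.29 ± 0.33 (SE), Smad4 at -0.45 ± 0.42 (SE) and Elavl1 at 0.25 ± 0.50 (SE). Those of the rest were Cdk4 at 0.20 ± 0.36 (SE), Id3 at -0.23 ± 0.34 (SE), Bcan at -0.34 ± 0.30 (SE), Sparcl1 at -0.25 ± 0.26 (SE) and Mfge8 at -0.39 ± 0.26 (SE), with Mt2, also listed under glucocorticoids, at -0.59 ± 0.50 (SE). Hspa8, the most abundant chaperone, was at 1209.8 CPM in PTE+ and 1213 CPM in sham on average. H2-D1 and Tm4sf1, the most abundant of the A1 and A2 lists, had -0.38 ± 0.54 (SE) and 0.18 ± 0.60 (SE). None passed an unadjusted p of 0.05.

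Some genes that met the criteria were counted in 1 group and missed in the other. In 13 of the 59 lower genes every PTE+ library had at most 3 counts, while no higher gene was missed in every sham library. Over all 14903 genes tested, 139 had more than 3 counts in no PTE+ library but in at least 2 sham libraries, and 25 the reverse. A gene is more easily missed in all of 4 PTE+ libraries than in all of 5 sham libraries, so these counts are not like for like. Krt19, a keratin of epithelial filaments (chr11:100140810-100148665, minus strand), was at 4.28, 2.31, 14 and 15.6 CPM in the PTE+ libraries, at 0.08803 CPM in sham mouse a8_16 and at 0 in the other sham libraries. The groups did not overlap (unadjusted p = 0.00751 in edgeR, exact permutation p = 0.0159), and the lowest, median and highest PTE- levels were 0, 0.0322 and 9.6 CPM. S100a7a, a calcium-binding S100 protein, was at 11.5, 1.45, 14.3 and 0.0197 CPM in PTE+ and at 0.0788, 0.044, 0.0366, 0.0201 and 0.0746 CPM in sham, with PTE+ mouse a9_19 at the sham level (unadjusted p = 0.00815 in edgeR, exact permutation p = 0.0952). Cnksr1, a scaffold of Ras signalling, rested on 1 library, at 27.1 CPM in PTE+ mouse a9_18, and its unadjusted p of 0.0206 exceeded 0.05 when PTE+ mouse a9_18 was left out, reaching 0.935, and the exact permutation test gave p = 0.571. Gm49353 was low throughout, at 0.141, 0.106, 3.7 and 2.89 CPM in PTE+ and at 0.158, 0, 0, 0 and 0 CPM in sham, and its unadjusted p of 0.0266 exceeded 0.05 when PTE+ mouse a9_18, sham mouse a9_10 or sham mouse a9_11 was left out, reaching 0.055 at most.

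The 13 genes missed in every PTE+ library were Cd79a, Alox5ap, Reg3b, Vav1, Batf2, Angptl7, Gm49356, Clec4n, Ppbp, Prss22, Psd4, Tmem202 and Mog. Vav1, an exchange factor of blood cells, was at 0 in all PTE+ libraries and at 0.709, 11.6, 25.1, 15.6 and 0 CPM in sham. Alox5ap, which leukocytes need to make leukotrienes, was at 0 in PTE+ and at 1.92, 3.3, 25.6, 4.45 and 0 CPM in sham. Cd79a, a chain of the B cell receptor, was at 0 in PTE+ and at 0.499, 0, 15.9, 5.9 and 0.0186 CPM in sham. The sham means of Vav1, Alox5ap and Cd79a were 188-fold, 125-fold and 79.1-fold above the limit of 3 counts in the PTE+ libraries. These ratios rest on the sham means, and the groups overlapped. Sham mouse a9_9 was highest in all 3, and sham mouse a9_11 was at or near 0. Unadjusted p values in edgeR were 0.00977, 0.00862 and 0.00708, and the exact permutation test gave p = 0.0794 for each. Microglia markers had 9 of 10 lower with a median of -0.69 and 0 at an unadjusted p under 0.05. Csf1r, the receptor that microglia depend on, was at 170.1, 4.13, 189.8 and 0 CPM in the PTE+ libraries and 26.8, 88.9, 379, 234 and 13.5 CPM in the sham libraries, low in PTE+ mice a9_17 and a9_19 and in sham mouse a9_11. Of the markers of T cells 1 could be tested, and of those of macrophages 3, none with an unadjusted p under 0.05, Cd3g reaching at most 3.503 CPM and Pf4 being at 1.85, 0.265, 0 and 0 CPM in the PTE+ libraries and 2.15, 2.18, 0, 0.966 and 0 CPM in the sham libraries. The part of microglia or blood cells in the missed genes was not tested.

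**Figure D4:**
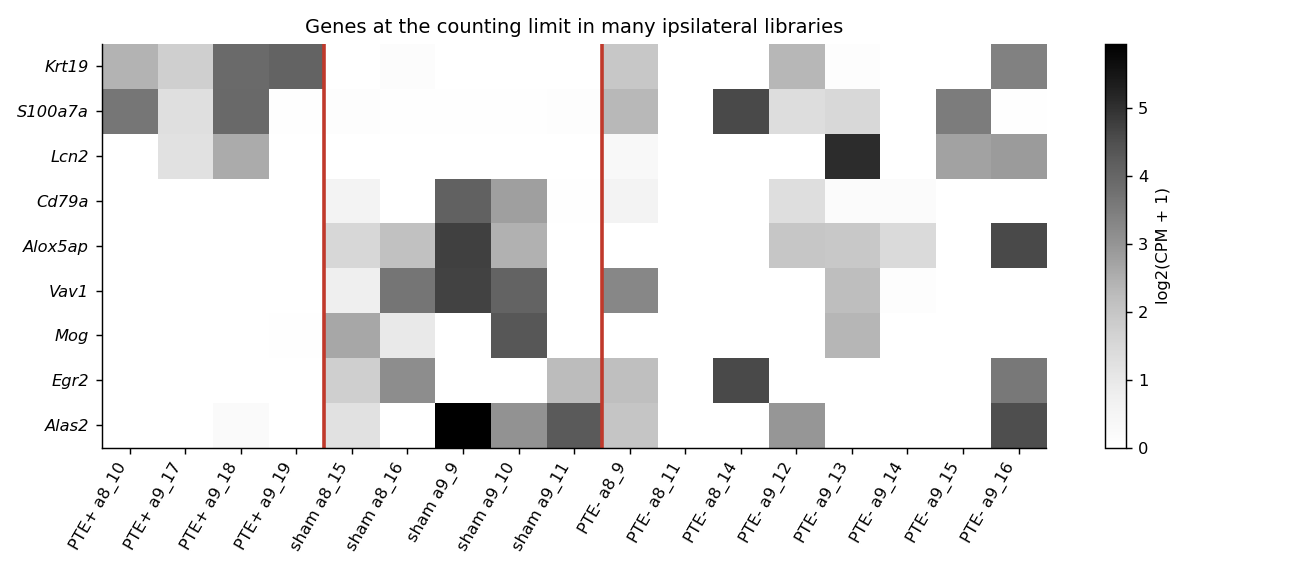
Level of 9 genes in log2(CPM + 1) (shade) in each ipsilateral library (columns, PTE+, sham and PTE- from left to right, divided by lines). Krt19 is present in all 4 PTE+ libraries, and Vav1, Alox5ap, Cd79a, Mog and Egr2 are at or near 0 there, with scattered levels in sham and PTE-.

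Among oligodendrocyte and blood markers 1 of each passed an unadjusted p of 0.05 in edgeR, Mog and Alas2. All 7 tested oligodendrocyte markers had a fold change below 0, with a median of -1.01, and their summed levels overlapped. Mog, a protein of the myelin surface, was at or below 0.0196 CPM in PTE+ and at 5.2, 0.946, 0, 19.1 and 0 CPM in sham (unadjusted p = 0.0275 in edgeR, exact permutation p = 0.238). Its sham mean was 89.3-fold above the limit of 3 counts in the PTE+ libraries, though sham mice a9_9 and a9_11 were also at 0. In the 6 fits with 1 library left out that kept the gene, the p exceeded 0.05 when PTE+ mouse a8_10, PTE+ mouse a9_17 or PTE+ mouse a9_18 was left out, reaching 0.0634 at most. Mbp, a protein of compact myelin, was at 171, 45.3, 509 and 82.5 CPM in the PTE+ libraries and 535, 755, 160.5, 1518 and 24.1 CPM in the sham libraries. Mobp, another, was at 0, 4.25, 49.8 and 0 CPM in the PTE+ libraries and 63, 242, 66.4, 259 and 6.47 CPM in the sham libraries. Sham mouse a9_10 was highest in both, and the groups overlapped. Their fold changes were -1.57 ± 0.99 (SE) (p = 0.129 in edgeR, unadjusted) and -3.24 ± 2.25 (SE) (p = 0.167), neither under 0.05 in edgeR. The exact permutation test gave p = 0.429 for Mbp and p = 0.0317 for Mobp. Cnp, the most abundant, had -0.17 ± 0.23 (SE). All 5 blood markers had a fold change below 0, with a median of -1.28, and their summed levels overlapped as well. Hba-a1, a haemoglobin chain that cannot be fully separated from its copy Hba-a2, was at 272, 138, 179.9 and 207 CPM in the PTE+ libraries and 277, 117, 991, 688 and 342 CPM in the sham libraries, highest in the a9 sham mice, with -1.28 ± 0.68 (SE) and p = 0.0772. The difference was 0.59 among a8 mice, in the opposite direction. Alas2, the erythroid enzyme of heme synthesis, was at 0.164 CPM or less in PTE+ and at 1.34, 0, 60.2, 7.25 and 18 CPM in sham (unadjusted p = 0.0281 in edgeR, exact permutation p = 0.0794). The p exceeded 0.05 when PTE+ mouse a8_10, PTE+ mouse a9_17, PTE+ mouse a9_19 or sham mouse a9_9 was left out, reaching 0.0615 at most. Markers of other cells had 0 genes at an unadjusted p under 0.05 in edgeR, with medians of 0.44 for oligodendrocyte precursors, 0.12 for endothelium, 0.45 for mural cells and fibroblasts and 0.22 for ependyma and choroid plexus. Their most abundant genes were Neu4 of oligodendrocyte precursors at -0.39 ± 1.90 (SE), Ly6c1 of endothelium at -0.20, Dcn of fibroblasts at 0.80 ± 0.63 (SE) and Ccdc153 of ependyma at -0.55 ± 0.96 (SE).

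The contralateral hippocampus of the same 9 mice gave a comparison with the side opposite the impact. The difference between the hemispheres in the effect of PTE+ against sham was tested as an interaction over 18 libraries. No gene passed an adjusted p of 0.05 in edgeR (0 of 15045). At an unadjusted p under 0.05 there were 350 (2.33%), and with the mouse as a block, since both hemispheres come from 1 animal, 203. Limma voom with the same block gave 0 adjusted and 748 unadjusted. Tsc22d3 was lower on the contralateral side as well, at -0.93 ± 0.23 (SE), and the sides differed by -0.21 with an interaction p of 0.521. For Hsd11b1 the contralateral fold change was -1.05 ± 0.37 (SE), with a difference of -0.65 and an interaction p of 0.223. Glul was at -0.27 ± 0.20 (SE) contralaterally (interaction p of 0.139), Cst3 at -0.59 ± 0.33 (interaction p of 0.671) and C4b at 0.61 ± 0.43 (interaction p of 0.236). For none of these genes was a difference between the sides shown, which does not show that the sides were alike.

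Snhg11 was at 0.38 ± 0.50 (SE) contralaterally, and its interaction had an unadjusted p of 0.0864 without and 0.00614 with the mouse as a block. Cox4i1 (0.149 without the block and 0.00949 with it), Ndufa9 (0.111 and 0.0469), Dcn (0.295 and 0.0411) and Hba-a1 (0.0781 and 0.0443) were likewise under an unadjusted p of 0.05 in edgeR with the block alone. Krt19 was the named gene with the smallest interaction p in the fit without the block, 0.00203, with a contralateral mean of 0 CPM in PTE+ and 0.0182 CPM in sham, but with the block its p was 0.177. Alox5ap, Vav1 and Cd79a had interaction p values of 0.00454, 0.005 and 0.00869, and with the block 0.0417, 0.0235 and 0.0128. On the contralateral side Vav1 averaged 8.19 CPM in PTE+ and 5.45 CPM in sham, so that it was counted in both groups there. Krt19, Alox5ap, Vav1 and Cd79a were chosen with their ipsilateral values known, and the interaction uses those values again.

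**Figure D5:**
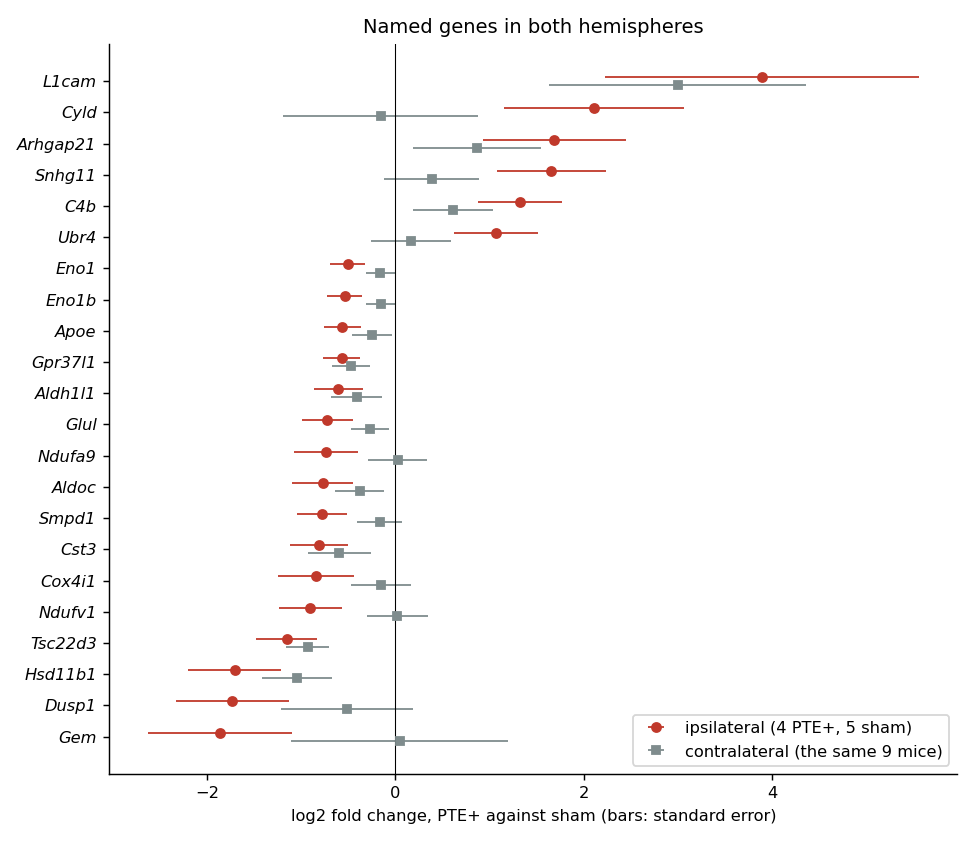
Log2 fold change of PTE+ against sham (horizontal, bars are standard errors) on the ipsilateral side (red circles) and the contralateral side (gray squares) of the same 9 mice, for the named genes with more than 3 counts in all 9 ipsilateral libraries and an unadjusted p under 0.05 there. These genes were chosen on the ipsilateral side, and the contralateral values of Tsc22d3 and Hsd11b1 lie at -0.93 and -1.05.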

How the data were processed

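RNA of ACSA-2 bead-isolated hippocampal astrocytes was sequenced from SMART-Seq V4 libraries. The authors trimmed reads with Trim Galore 0.6.4, aligned them with Bowtie2 2.4.1 to mm10 and quantified genes with RSEM 1.2.28, and they tested with DESeq2 1.36.0, versions per the submitters' processing notes. The deposited files hold the expected counts that RSEM estimated per gene for each library, and the authors also deposited TPM values from the same run. The annotation release was not given in the sources used here, and 21933 of 21975 gene identifiers were matched to GENCODE vM21.

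Expected counts were rounded to whole numbers, scaled with TMM factors and tested with edgeR 4.0.16 (glmQLFTest, R 4.3.3, filterByExpr) over the 17 ipsilateral libraries of PTE+, sham and PTE- mice, with Benjamini-Hochberg adjustment. Named genes were also compared by a 2-sided exact permutation test of the mean log2(CPM + 1) over the 9 libraries. Alternatives used DESeq2 1.42.0 and limma 3.58.1. The counting limit is 3 counts per library and covers counting error only, since reads carried no molecular identifiers. SDs give the spread between the libraries of a group. With 1 library per mouse, differences between mice and between library preparations cannot be told apart in it. SEs and p-values of edgeR rest on the spread estimated over the 17 ipsilateral libraries, with a common biological coefficient of variation of 1.40. For contralateral values and the interaction they rest on 18 libraries. The script was tested on simulated data.

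Named genes were the 6 higher and 6 lower genes of smallest p that met the criteria, the same for those with more than 3 counts in all 9 libraries, of each list the genes with an unadjusted p under 0.05 and the most abundant one, and 13 genes of reactive and homeostatic astrocytes. The groups, lists and members were chosen with earlier results of these data known, and 10 further genes (Dusp1, Vav1, Ndufv1, Ndufa9, Cox4i1, Gem, Junb, Mbp, Mobp and Klf9) were picked out after their values were seen. Some genes that these rules take are not reported here. Both hemispheres of a mouse carry its name, which pairs them in the interaction. The correlation within a mouse was 0.129.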

Additional observations from a re-analysis of the deposited data

Results flagged for a closer look

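In 6 of 69 genes tested, the PTE+ against sham difference was unlike between the hemispheres at an unadjusted p under 0.05 in edgeR without the mouse as a block. Over all genes tested the share was 2.33%. Many of the 69 had been named for their ipsilateral values, which the interaction uses again, so their count cannot be set against that share. The ipsilateral minus contralateral difference on the log2 scale was 11.72 for Krt19 (unadjusted edgeR interaction p of 0.00203, and 0.177 with the mouse as a block). It was -12.53 for Vav1 (0.00500, and 0.0235 with the block), -11.68 for Cd79a (0.00869 and 0.0128), -10.67 for Alox5ap (0.00454 and 0.0417), -9.71 for Mog (0.0246 and 0.0775) and -9.53 for Alas2 (0.0304 and 0.179). With the block alone, Snhg11 (0.00614), Cox4i1 (0.00949), Dcn (0.0411), Hba-a1 (0.0443) and Ndufa9 (0.0469) also had an unadjusted edgeR p under 0.05. The adjusted p of the interaction passed 0.05 for no gene, and the fitted values of the first 6 genes involve groups at or near 0 counts, so that their size depends on the prior count.

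A library stood apart from the others of its group by Dixon's criterion in 10 of 148 groups of values. Chance gives about 1 in 20 for independent normal values. CPM levels of few libraries, some at 0, are not such values, so the count cannot be set against that rate. In PTE+, mouse a9_18 was high for Cnksr1 (27.1 CPM) and Entpd2 (523 CPM) and low for Fos (3.27 CPM) and Ndufv1 (146 CPM), and mouse a9_19 was low for Ndufa9 (48.9 CPM) and Klf9 (74.8 CPM). In sham, mouse a9_9 was low for Ubr4 (23.1 CPM), Arhgap21 (2.398 CPM) and Neu4 (0 CPM), and mouse a9_10 was high for Cd3g (3.503 CPM).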

How the results depend on the processing

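The number of genes that met the criteria (73, of which 14 higher) depended on the fit more than on the scaling. It was 53 with RLE factors (18 higher) and 53 with total count scaling (23 higher), settings that moved the median of all genes to 0.07 and 0.15, against 157 (63 higher) with the 2 groups alone, 177 with a mean TPM above 1, 393 (320 higher) with detected genes counted as a covariate, 113 and 349 with DESeq2 (3 and 2 groups), 305 with limma voom and 250 (183 higher) with limma on log2(TPM + 1), where the median was 0.17. Leaving out 1 library gave 35 to 183 genes: 35 without sham mouse a9_9, 137 without PTE+ mouse a9_17, 143 without sham mouse a9_10 and 183 without PTE- mouse a8_11. Without both sham a9_9 and PTE- a8_11, a setting chosen after seeing the data, it was 151. An adjusted p under 0.05 was given by DESeq2 for 61 (3 groups) and 7 genes (2 groups), and past the TPM minimum for 3 and 7. Under a replicate block that pairs the hemispheres of each mouse, the interaction gave 0 genes. The cause of these differences was not tested.

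Of 907 values of 71 genes under other settings, 760 kept direction and side of the threshold and 32 turned. With limma on log2(TPM + 1), H2-D1 was 0.071, Gja1 0.069, Sparcl1 0.00259, Id3 0.11, Cnp 0.10, Ccdc153 0.62, Aqp4 0.012 and Hspa8 0.28. With limma voom, H2-D1 was 0.21, Ccdc153 1.44 and Hspa8 0.00404. Among a9 mice, Ifitm3 was -0.26, Fos 0.26, Id3 0.24, Neu4 0.64, Kcnj10 -0.0048 and Hspa8 0.29. With total count scaling, Aqp4 was 0.061, Slc1a2 0.017 and Hspa8 0.17. Without sham a9_9 and PTE- a8_11, Aqp4 was 0.051 and Hspa8 0.13. On log2(CPM + 1), Neu4 was 0.062, Ccdc153 0.43 and Hspa8 0.042. With detected genes as a covariate, Neu4 was 1.29. Hspa8 was also 0.060 and 0.075 with DESeq2 (2 and 3 groups), 0.075 with RLE, 0.028 with the name prefix as a covariate and 0.065 with the 2 groups alone.

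Leaving out 1 library gave 636 values, of which 549 were unchanged in call, 57 lost it and 21 turned. The ranges were -0.15 to 0.65 for Gfap, -0.78 to 0.24 for H2-D1, -0.24 to 0.83 for Tm4sf1, -0.026 to 0.78 for Ifitm3, -0.13 to 0.16 for Hspa8, -0.38 to 0.078 for Id3, -1.12 to 0.21 for Ly6c1, -1.12 to 0.15 for Ccdc153, 0 to 6.85 for Timp1, -0.30 to 0.041 for Aqp4, -0.23 to 0.37 for Kcnj10 and -0.36 to 0.049 for Slc1a2. Levels at or under 3 counts cannot be ordered at this depth.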
